A study of Rattus norvegicus with 6 samples.

Results

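The complement components studied here are the 10 genes C1qa, C1qb, C1qc, C1r, C1s, C2, C3, C4a, Cfb and Cfd, which encode the proteins that start and amplify the classical and alternative pathways. They were taken by gene symbol from a count table of 17771 genes, and all 10 were found in it and passed the filter on low counts. The libraries came from corneas of Wistar rats at day 7 after grafting with corneas of Sprague-Dawley (SD) donors, so every animal in the study carried an allograft. Recipients had daily intraperitoneal resveratrol, a plant polyphenol, in one group and daily intraperitoneal saline in the control group, with 3 libraries each, and no genotype beyond the strains and no age is stated. Whether each library is a different rat is not stated either, so a p-value here reflects the variation among 3 libraries a group, part of which may be technical. No corneas without a graft are among the samples, so the values compare treated with untreated grafts only.

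The classical pathway begins when C1q, a bundle of trimers built from the A, B and C chains, binds antibody or a damaged surface and activates the proteases C1r and C1s that travel with it. C1s cleaves C4 and then C2, whose fragments join into an enzyme that splits C3. In the alternative pathway C3 itself, together with factor B (Cfb) and the protease factor D (Cfd, also called adipsin), forms a second C3-splitting enzyme. Much of the circulating protein is made in the liver, whereas C1q is made mainly by macrophages and dendritic cells, and fibroblasts and epithelia can make C1r, C1s and C3 locally. RNA from the cornea therefore reports local production and not the protein that arrives from blood.

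In the RefSeq gene order of the rat assembly GRCr8, the C1q chain genes stand next to each other with no protein-coding gene between them, as do C1r and C1s, and C2 and Cfb. C4a lies 4 protein-coding genes beyond Cfb, in the class III part of the major histocompatibility complex, and a second copy, C4b, follows after 12 more. Windows of 300 bases at the gene start were given by RefSeq for 6 of the 10 genes, namely C1qa, C1qb, C1r, C3, C4a and Cfd. The upstream 250 bases of C1qa and C1qb are shown because these genes, with C1qc between them, encode chains of the same protein, with capitals at motif matches. They lie at chr5:154419934-154420183 and chr5:154407828-154408077 on the minus strand of GRCr8.
C1qa: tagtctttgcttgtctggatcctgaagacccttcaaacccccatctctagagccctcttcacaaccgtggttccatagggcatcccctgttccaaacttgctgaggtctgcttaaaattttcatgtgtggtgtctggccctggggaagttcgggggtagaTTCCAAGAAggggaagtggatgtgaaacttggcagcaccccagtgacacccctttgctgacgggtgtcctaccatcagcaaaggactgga
C1qb: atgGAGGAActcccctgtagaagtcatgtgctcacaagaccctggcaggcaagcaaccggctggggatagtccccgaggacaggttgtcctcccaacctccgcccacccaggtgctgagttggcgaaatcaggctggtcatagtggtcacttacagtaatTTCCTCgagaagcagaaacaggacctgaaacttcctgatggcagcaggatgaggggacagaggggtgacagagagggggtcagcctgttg

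The 5 motifs searched on both strands were the interferon-stimulated response element (GAAA, any 2 bases, GAAA), the STAT-binding GAS element TTCNNNGAA, the Spi1 core GAGGAA, the NF-kB form (GGG, any 2 bases, TTTCC) and the AP-1 site TGANTCA. The C1qa window held a GAS match at bases 161 to 169, counted from the 5' end of the printed run, and C1qb held Spi1 matches at bases 4 to 9 and, on the opposite strand, at 161 to 166. C1r held a Spi1 match, while the C3, C4a and Cfd windows held none of the 5. Among 33469 rat windows of the same length, 8.87% held a GAS match, 27.6% a Spi1 match, 3.92% an interferon-stimulated response element, 1.53% the NF-kB form and 7.33% an AP-1 site. These matches describe letters only.

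The C4a and C4b upstream regions are shown because C4b is a second copy of C4a. Capitals here mark bases that did not pair with the same base in the other copy. The transcribed sequences were not aligned, so how far sequence reads could be shared between the copies was not examined. Of 185 aligned bases, 166 were identical and 19 were mismatched, with 5 further bases unpaired in each run. The runs lie at chr20:4010107-4010296 and chr20:4201729-4201918 on the plus strand of GRCr8.
C4a: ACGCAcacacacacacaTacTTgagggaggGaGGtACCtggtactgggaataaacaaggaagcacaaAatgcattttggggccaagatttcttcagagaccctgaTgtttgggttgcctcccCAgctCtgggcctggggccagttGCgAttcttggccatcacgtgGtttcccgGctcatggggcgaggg
C4b: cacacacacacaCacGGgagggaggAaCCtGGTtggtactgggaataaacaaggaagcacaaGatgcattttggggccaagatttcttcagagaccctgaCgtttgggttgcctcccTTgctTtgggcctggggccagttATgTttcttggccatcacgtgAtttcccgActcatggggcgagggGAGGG

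The level of each gene per length and depth was read from the deposited FPKM values. C1r and C1s stood highest in both groups, at 83.4 ± 15.7 and 85.1 ± 19.6 FPKM in resveratrol corneas and 103 ± 11.5 and 93.8 ± 11.5 FPKM in control corneas (SD, n = 3), and their ranges overlapped within each group. The C1q chains came next. C1qc was at 38.4 ± 8.55 FPKM in resveratrol and 63.7 ± 11.5 FPKM in control, and its range overlapped that of C1qa in both groups, as did the ranges of C1qa and C1qb. C2 followed below C1qb and above C4a without overlap in either group. C4a and Cfd overlapped in both groups, and C3, the protein on which both pathways converge, was at only 2.90 ± 1.74 FPKM in resveratrol and 3.59 ± 0.866 FPKM in control. The ranges of Cfd and C3 overlapped in resveratrol and stood apart in control. Cfb was the lowest, at 0.761 ± 0.293 FPKM in resveratrol and 1.28 ± 1.12 FPKM in control. Together the 10 genes took 0.0598% to 0.0759% of all counts in resveratrol libraries and 0.0768% to 0.102% in control libraries.

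All 10 genes had lower means in resveratrol, and none passed the test. In edgeR's quasi-likelihood test, with p-values adjusted over the 14213 genes tested, the smallest adjusted p among the members was 0.1002 (C4a) and 0 of 10 passed 0.05, as did 0 of all genes (0% called). At an unadjusted p under 0.05, 5 of 10 members were lower (C1qa, C1qb, C1qc, C2 and C4a), and 0 were higher, where 11.7% of all genes tested were lower and 7.84% higher by that rule, or 19.6% in all. The groups did not overlap for 4 members, all lower in resveratrol (C1qa, C1qc, C2 and C4a), against 14.4% of all genes tested that were lower without overlap and 12.2% that were higher. DESeq2, run as an alternative, gave the same 4 genes an adjusted p under 0.05, all lower, where 6.87% of the genes it tested were called in either direction and 4.64% called lower. The median log2 fold change was -0.72 over the members and -0.0080 over all genes tested, and 51.2% of all genes had a fitted value below 0. Fold changes below are log2 from edgeR, resveratrol minus control, ± a moderated standard error from a separate limma fit on log2 CPM. Levels are CPM, the count scaled by the TMM-adjusted library size.

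**Figure D1:**
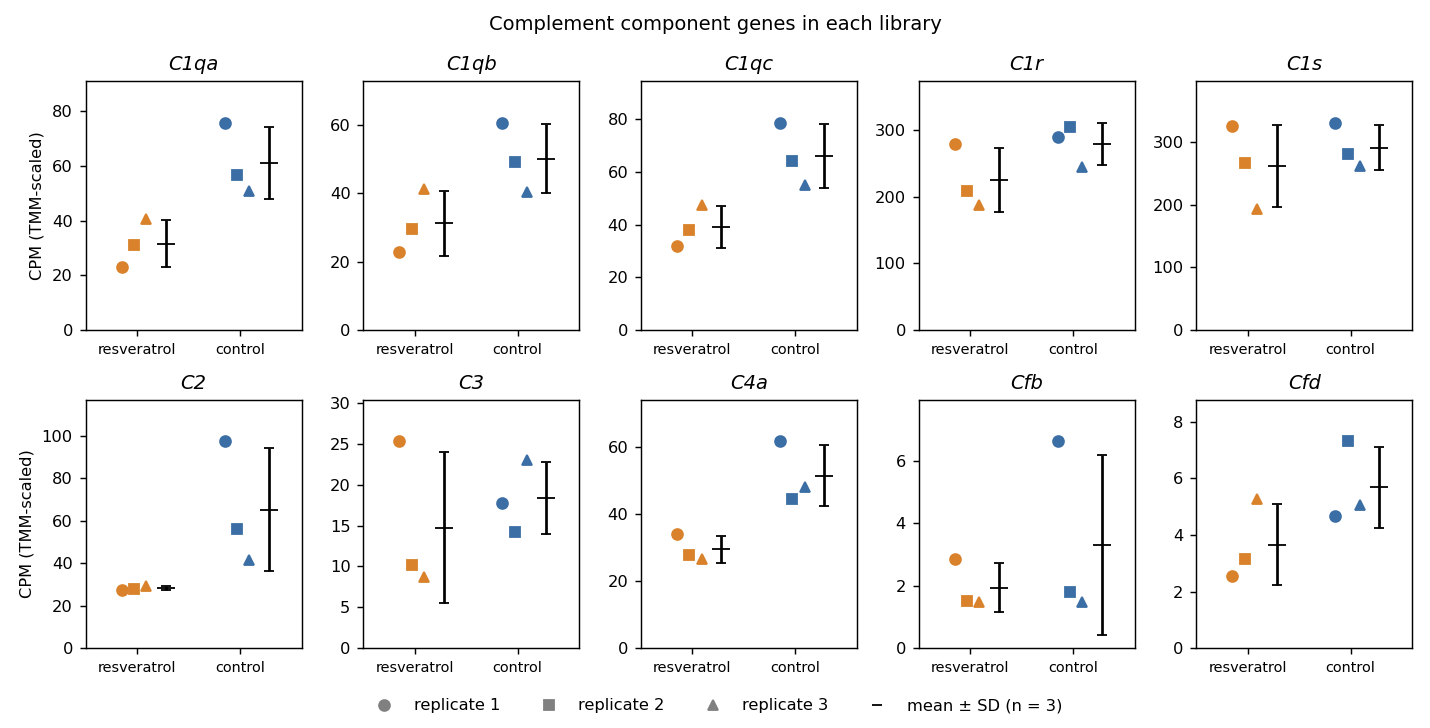
CPM of each complement component gene (y axis, TMM-scaled) in the 3 resveratrol libraries (orange, left) and the 3 control libraries (blue, right), with the symbol giving the replicate number and bars the mean ± SD (n = 3). C1qa, C1qc, C2 and C4a show no overlap between the groups, and the single high control value of Cfb is 6.64 CPM.

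C1qa, the A chain of C1q, was at 23.0, 31.3 and 40.5 CPM in resveratrol libraries 1, 2 and 3, against 75.9, 56.8 and 50.8 CPM in control libraries 1, 2 and 3. Every resveratrol library lay below every control library. The difference was -0.95 ± 0.23 (edgeR adjusted p = 0.125, DESeq2 adjusted p = 0.00391). C1qc was at 31.8, 38.0 and 47.5 CPM in resveratrol and 78.8, 64.3 and 54.9 CPM in control, again without overlap, and differed by -0.75 ± 0.18 (edgeR adjusted p = 0.125, DESeq2 adjusted p = 0.00732). C1qb was at 22.7, 29.6 and 41.3 CPM in resveratrol and 60.8, 49.3 and 40.5 CPM in control. Resveratrol 3 thus lay just above control 3, and C1qb differed by -0.68 ± 0.23 (edgeR adjusted p = 0.187, DESeq2 adjusted p = 0.0722). For all 3 chains resveratrol 1 was the lowest library and control 1 the highest, while resveratrol 3 was the highest of its group and control 3 the lowest.

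The ratios among the C1q chains were read from FPKM, and those with C1qa stood apart between the groups. The C1qc to C1qb ratio of FPKM was 1.34 ± 0.133 in resveratrol and 1.38 ± 0.0330 in control (SD, n = 3), and the groups overlapped. The C1qa to C1qb ratio was 1.09, 1.14 and 1.05 in resveratrol libraries 1, 2 and 3 and 1.34, 1.24 and 1.35 in control libraries 1, 2 and 3. It was lower in every resveratrol library than in any control library, and so was the C1qa to C1qc ratio, at 0.742, 0.844 and 0.875 in resveratrol and 0.990, 0.907 and 0.951 in control. Both ratios were singled out after their values were seen and were given no test. Summed over the 3 chains, C1q was at 73.6, 96.5 and 128 FPKM in resveratrol and 207, 164 and 141 FPKM in control.

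Most macrophage markers also had lower means in resveratrol. Of 15 listed markers 14 were tested, and 12 had a lower mean in resveratrol. In 7 of the 14 the groups did not overlap, all lower in resveratrol, against 14.4% of all genes tested that were lower without overlap. The summed level of the 14 was 427 to 645 CPM in resveratrol and 571 to 974 CPM in control, with no tested marker at 0 in any library. Ccr2, a receptor of blood-derived monocytes, differed by -2.20 ± 0.44 and Cd68, a lysosomal protein of macrophages, by -0.88 ± 0.18, neither passing edgeR's test (adjusted p = 0.106 and 0.109). Lyz2, the lysozyme of macrophages and the highest of the list in CPM, differed by -0.80 ± 0.46. It was a large part of the summed level, at 115, 131 and 243 CPM in resveratrol libraries 1, 2 and 3 and 503, 190 and 158 CPM in control libraries 1, 2 and 3. The ratio of summed C1q to Csf1r, the receptor for macrophage colony-stimulating factor, was 12.5 ± 1.08 in resveratrol and 12.1 ± 1.99 in control on the FPKM scale (SD, n = 3), and the groups overlapped. Against the sum of all 14 markers the C1q ratio was 0.303 to 0.357 in resveratrol and 0.331 to 0.414 in control, again overlapping. The part of macrophage number in the C1q values was not tested, and in bulk tissue fewer cells of a type and less RNA per cell cannot be told apart.

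**Figure D2:**
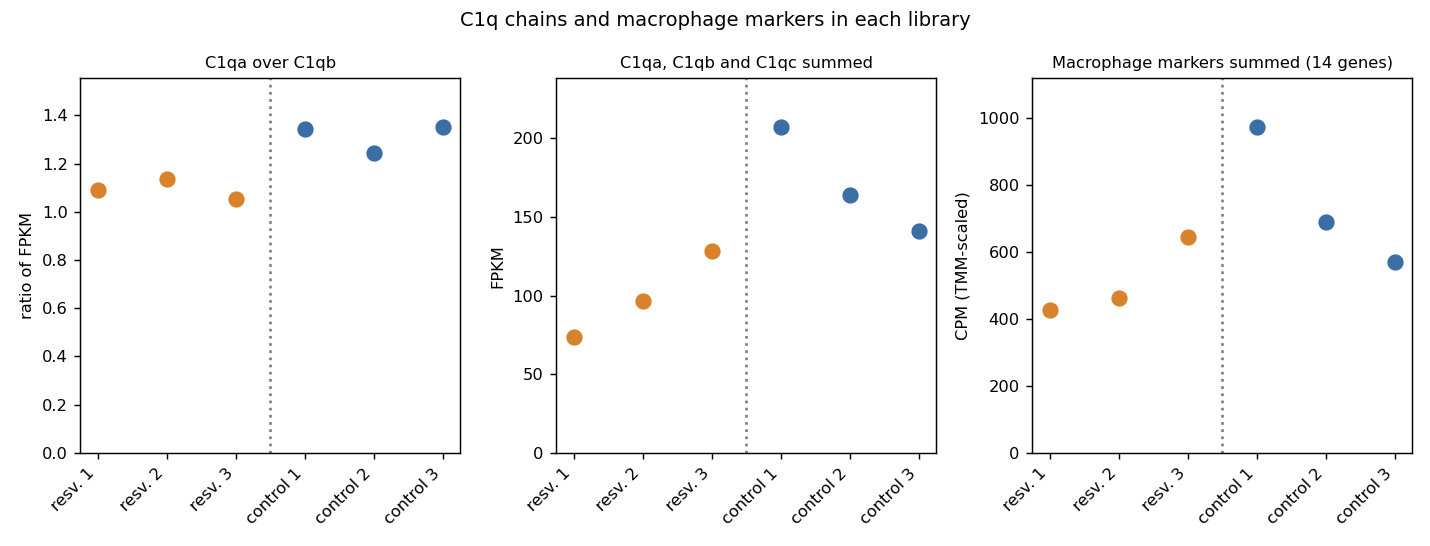
Ratio of C1qa to C1qb FPKM (left), summed FPKM of C1qa, C1qb and C1qc (middle) and summed CPM of 14 macrophage markers (right) in each of the 6 libraries, resveratrol in orange and control in blue, 1 point per library. The C1qa to C1qb ratio is 1.05 to 1.14 in resveratrol and 1.24 to 1.35 in control. The marker sum, of which Lyz2 is a large part, overlaps between the groups.

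C1r and C1s, the proteases of the C1 complex, were the most abundant members, and neither passed the test. C1s was at 325, 267 and 194 CPM in resveratrol libraries 1, 2 and 3, against 331, 280 and 261 CPM in control libraries 1, 2 and 3. Resveratrol 1 and 2 lay within the control range and resveratrol 3 below it. The difference was -0.15 ± 0.19 (edgeR adjusted p = 0.684), and it rested on single libraries, at 0.034 without resveratrol 3, -0.33 without resveratrol 1 and -0.043 without control 1. C1r was at 279, 208 and 188 CPM in resveratrol and 290, 305 and 244 CPM in control, and differed by -0.32 ± 0.16 (edgeR adjusted p = 0.320). Resveratrol 1 lay inside the control range and the other resveratrol libraries below it. Without resveratrol 1 C1r differed by -0.49, and without resveratrol 3 by -0.19. The C1r to C1s ratio of FPKM was 0.991 ± 0.109 in resveratrol and 1.10 ± 0.124 in control (SD, n = 3) and overlapped between the groups.

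Within resveratrol the proteases and the C1q chains lay in opposite order. In control they did not, as C1r, C1s and the C1q chains were all lowest in control 3. Resveratrol 1 had the highest C1r and C1s and the lowest C1q, and resveratrol 3 the lowest C1r and C1s and the highest C1q. The ratio of summed C1r and C1s to summed C1q was accordingly 2.78, 1.71 and 1.06 in resveratrol libraries 1, 2 and 3, against 1.03, 1.23 and 1.24 in control libraries, all on the FPKM scale. Markers of corneal keratocytes and fibroblasts summed to 13337, 9698 and 9908 CPM in resveratrol and 20491, 17972 and 14273 CPM in control. In this sum resveratrol 1 was the highest of its group, as for C1r and C1s, and the groups did not overlap. Most of the sum was Col1a1 and Col1a2, at 4540 and 2998 CPM in resveratrol 1 and 9242 and 5466 CPM in control 1. Kera alone was highest in resveratrol 2. Of 10 such markers 9 were tested and all 9 had a lower mean in resveratrol. In 5 of them the groups did not overlap, against 14.4% of all genes tested that were lower without overlap. Those with the highest CPM, Col1a1 and Col1a2 of type I collagen, differed by -0.97 ± 0.27 and -0.91 ± 0.23, and Pdgfrb, a growth factor receptor of mesenchymal cells, by -0.78 ± 0.14 (edgeR adjusted p = 0.1002). Keratocyte genes Lum and Kera differed by -0.26 ± 0.14 and -0.19 ± 0.27, and Dcn and Pdgfra by -0.071 ± 0.21 and -0.060 ± 0.22. Lum, Kera, Dcn and Pdgfra were named after their values were seen. The part of stromal cells in the C1r and C1s values was not tested.

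**Figure D3:**
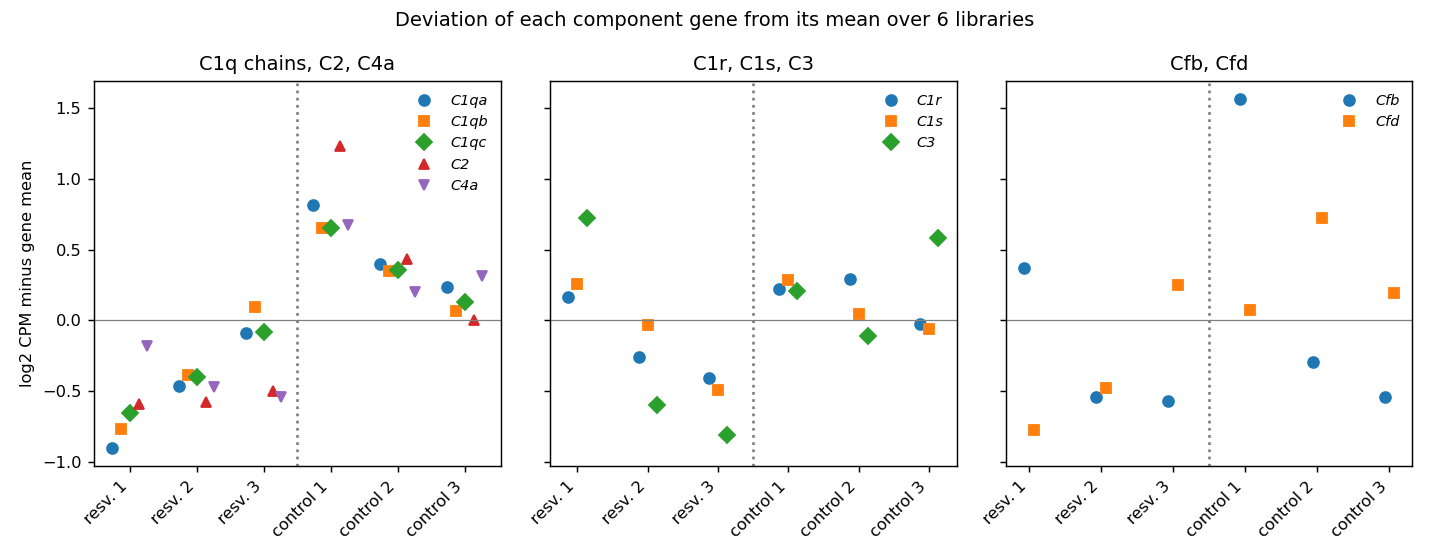
Log2 CPM of each component gene minus that gene's mean over the 6 libraries (y axis), for resveratrol libraries 1 to 3 and control libraries 1 to 3 (x axis), 1 point per gene and library. The C1q chains of resveratrol 1 lie at -0.90 to -0.66 while C1r, C1s and C3 of the same library lie at 0.16 to 0.72.

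C4a and C2, which together supply the classical C3-splitting enzyme, had the smallest p-values of the 10. C4a was at 34.1, 27.9 and 26.6 CPM in resveratrol libraries 1, 2 and 3, against 61.8, 44.5 and 48.1 CPM in control libraries 1, 2 and 3. The lowest control library stood clear of the highest resveratrol library. The difference was -0.80 ± 0.15 (edgeR adjusted p = 0.1002, DESeq2 adjusted p = 0.000411), ranking 130th by p-value of the genes tested. With each library left out in turn, C4a stayed at -0.91 to -0.65 in edgeR. C4b, its copy, was at 7.04 ± 2.10 CPM in resveratrol and 13.1 ± 4.78 CPM in control (SD, n = 3) and differed by -0.89 ± 0.29 (edgeR adjusted p = 0.184), with no overlap between the groups. No source used here says how reads matching both copies were counted, so the split between them is uncertain; with the counts of both copies summed, an alternative chosen after the data were seen, the difference was -0.82 (edgeR adjusted p = 0.116). The C4a to C4b ratio of FPKM was 3.60 to 4.78 in resveratrol and 3.32 to 4.76 in control.

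C2 was at 27.6, 28.0 and 29.4 CPM in resveratrol, against 97.6, 56.4 and 41.6 CPM in control. The resveratrol libraries were within 2 CPM of each other, whereas the control libraries were spread out, so the mean was 28.3 ± 0.967 CPM in resveratrol and 65.2 ± 29.0 CPM in control (SD, n = 3). C2 had the most negative fold change of the members, -1.20 ± 0.27 (edgeR adjusted p = 0.125, DESeq2 adjusted p = 0.00133). Without control 1, the highest library, C2 differed by -0.79 (edgeR adjusted p = 0.169). With members and locus identifiers left out, the genes with profiles nearest to C2 were Ly6e, Gata2 and Cd74. Their root mean square differences were 0.086, 0.10 and 0.12 in centred log2 CPM over the 6 libraries, against a spread of 0.66 for C2 itself.

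C3 was at 25.3, 10.1 and 8.77 CPM in resveratrol libraries 1, 2 and 3, against 17.8, 14.2 and 23.0 CPM in control libraries 1, 2 and 3. Resveratrol 1 was the highest of all 6 libraries and resveratrol 2 and 3 were the lowest. The difference was -0.31 ± 0.39 (edgeR adjusted p = 0.697). Leaving out resveratrol 1 gave -0.95 (edgeR adjusted p = 0.231), and leaving out resveratrol 2, resveratrol 3 or control 3 gave -0.10, -0.041 and -0.12, so the size of the C3 difference rested on single libraries.

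Cfb and Cfd, of the alternative pathway, had few counts. Cfb, factor B, was counted 105, 56 and 56 times in resveratrol and 231, 66 and 56 times in control, or 2.87, 1.50 and 1.47 CPM and 6.64, 1.80 and 1.50 CPM. Control 1 was the highest and resveratrol 1 the second highest, and the other libraries lay close together. The difference of -0.76 ± 0.57 (edgeR adjusted p = 0.516) was 0.25 without control 1 and -1.14 without resveratrol 1. Its sign thus changed with control 1 alone left out, whereas with both of these libraries left out the difference was -0.14 in edgeR. Cfb lies next to C2, which was also highest in control 1, whereas the resveratrol 1 value of C2 was no higher than those of resveratrol 2 and 3. Cfd, factor D, was at 2.57, 3.17 and 5.27 CPM in resveratrol and 4.66, 7.32 and 5.07 CPM in control. Resveratrol 3 lay within the control range, and Cfd differed by -0.63 ± 0.30 (edgeR adjusted p = 0.312). Without control 2 it differed by -0.41 and without resveratrol 3 by -0.98.

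Cfd is known as a product of fat cells, and the defining adipocyte markers were near 0. Adipoq had 1 count in a single resveratrol library and 1 in a single control library, Plin1 had 0 counts in resveratrol and 1 in control, and Cidec had 3 counts in each resveratrol library and 1 in each control library. Of 7 adipocyte markers 2 were tested, Lipe and Fabp4, which vessels and macrophages also express, and both had lower means in resveratrol (-0.41 ± 0.14 and -1.44 ± 0.42). The summed marker level was 8.44 to 9.77 CPM in resveratrol and 11.8 to 15.1 CPM in control, at 1 to 3 markers without a count per library. Most of that sum was Lipe, at 7.87 ± 0.518 CPM in resveratrol and 10.5 ± 1.14 CPM in control. Fabp4 added 1.05 ± 0.213 and 2.87 ± 1.38 CPM in the same order (SD, n = 3), so the sum says little about fat cells. The part of adipocytes in the Cfd values was not tested. Of 8 liver markers 6 were in the table. Alb, Apoa1 and Fga had 0 counts in resveratrol and 1 each in control, Ttr had 0 in resveratrol and 3 in control, and Fgb had 18 in resveratrol, all in resveratrol 1, and 1 in control. Serpina1, the only liver marker tested, was at 2.58 ± 0.867 CPM in resveratrol and 2.41 ± 0.777 CPM in control (SD, n = 3). The corneal epithelial keratin Krt12 was at 35071 ± 2934 CPM in resveratrol and 34169 ± 1076 CPM in control (SD, n = 3).

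Replicate 1 of each group carries a label ending in Sep and the other libraries one ending in Oct, with no meaning given for either. Between the Sep libraries, 1 per group and so without a test, the difference in log2 CPM was -1.72 for C1qa, -1.42 for C1qb, -1.31 for C1qc, -1.82 for C2 and -0.86 for C4a. In the Oct libraries alone, edgeR gave -0.58, -0.34, -0.48, -0.77 and -0.76 for the same genes, all of the same sign, with adjusted p-values of 0.238 to 0.398. C3 differed in sign, at 0.51 between the Sep libraries and -0.97 in the Oct libraries. C1r differed by -0.059 and -0.47, C1s by -0.027 and -0.23, Cfb by -1.20 and -0.14, and Cfd by -0.85 and -0.55, Sep first. Cfb was also higher by 1.45 in mean log2 CPM in the Sep libraries than in the Oct libraries over both groups. In the Oct libraries 9.32% of genes had an unadjusted p under 0.05 and were lower, and 6 of the 10 members did so (C1qa, C1qc, C1r, C2, C3 and C4a), while 0 of 14256 genes passed the adjusted threshold.

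**Figure D4:**
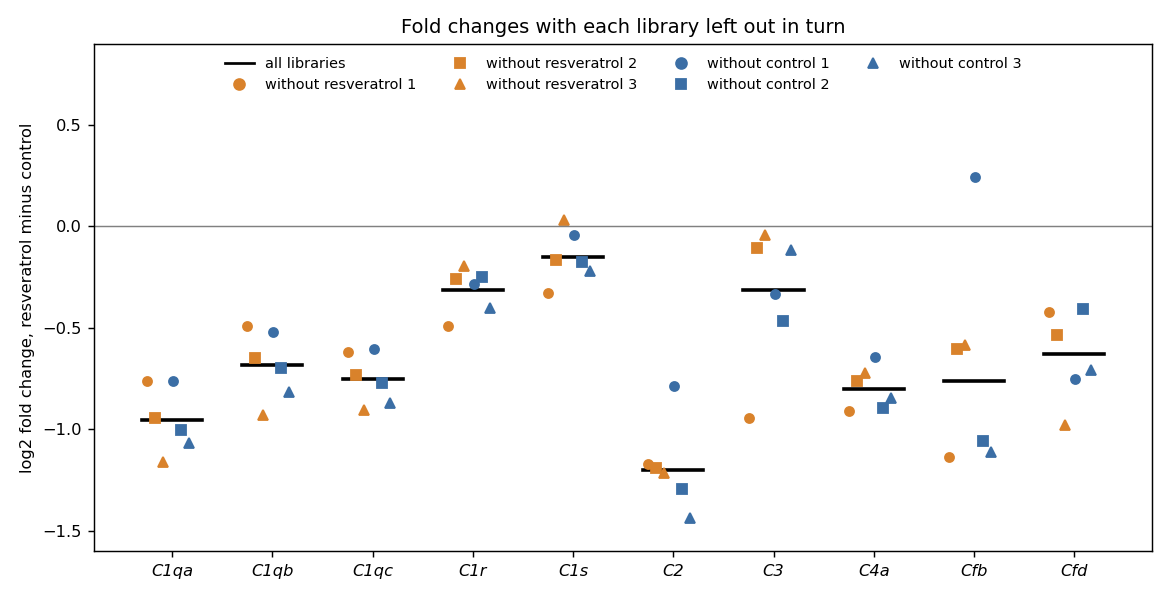
Log2 fold change of each component gene (y axis, resveratrol minus control, edgeR) with all 6 libraries (black line) and with each library left out in turn (orange symbols for resveratrol libraries, blue for control). C4a stays between -0.91 and -0.65, while Cfb turns to 0.25 without control 1 and C1s to 0.034 without resveratrol 3.

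The pathway around these components was read from 38 further genes, of which 33 were in the table and 25 were tested. In that set 18 had a lower and 7 a higher mean in resveratrol, with a median of -0.34, and 0 passed edgeR's test; 9 were lower at an unadjusted p under 0.05 (11.7% of all genes were) and DESeq2 called 4, all lower (4.64% of the genes it tested were called lower). Receptors held those 4: C3ar1, the receptor for the C3a fragment, at -1.29 ± 0.28 (edgeR adjusted p = 0.121), and Itgax, Itgb2 and Itgam, chains of integrin receptors for C3 fragments, at -1.10 ± 0.29, -1.16 ± 0.34 and -0.99 ± 0.32. C1qbp, a mitochondrial protein that can bind C1q, differed by 0.051 ± 0.068. Regulators were split, with 4 of 9 lower and 5 higher. Serping1, the inhibitor of C1r and C1s, was at 195 ± 46.1 CPM in resveratrol and 267 ± 29.6 CPM in control (SD, n = 3; -0.45 ± 0.18, edgeR adjusted p = 0.229), whereas Cd59, which blocks the membrane attack complex, was at 603 ± 80.4 and 508 ± 43.4 CPM in the same order (0.25 ± 0.12), and Clu differed by 0.31 ± 0.35. Properdin (Cfp), which stabilises the alternative enzyme, differed by -0.79 ± 0.30 without overlap between the groups. In the lectin pathway the protease Masp1 differed by -0.070 ± 0.14 and the ficolins Fcna and Fcnb by -0.73 ± 0.28 and -2.09 ± 0.83. Of the terminal components, C7 differed by -1.54 ± 0.87 and C8g by -0.19 ± 0.27, C6 by 0.038 ± 0.72, and 4 of 7 terminal genes were not tested.

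**Figure D5:**
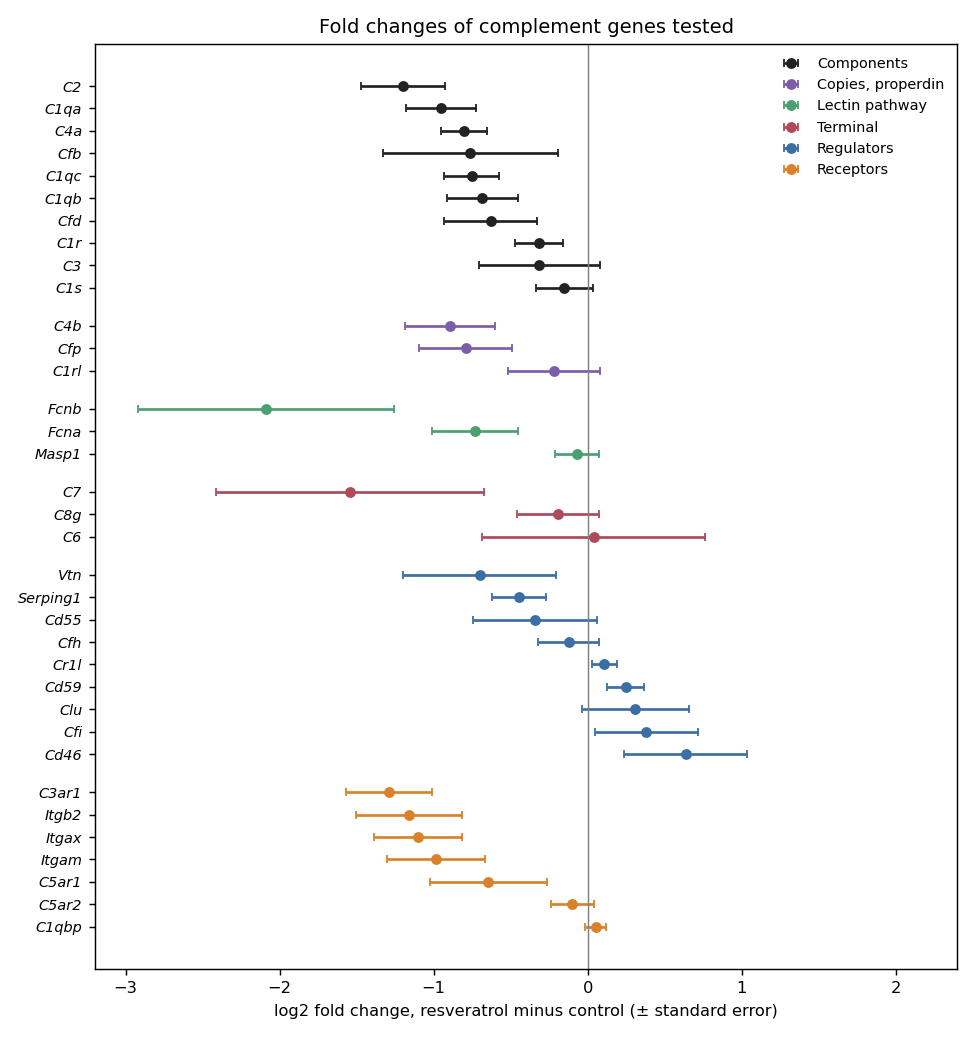
Log2 fold change from edgeR, resveratrol minus control, with the limma standard error (x axis). Shown are the 10 component genes and the 25 further complement genes that were tested (y axis, grouped by role). All 10 components lie below 0, regulators lie on both sides, and C1qbp lies at 0.051.

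Transcription factors of the interferon, STAT and NF-kB families and of macrophages were split in direction. Of 11 tested, 7 had lower and 4 higher means in resveratrol, with 0 passing edgeR's test and 4 lower and 2 higher at an unadjusted p under 0.05, against 11.7% and 7.84% of all genes tested. Irf7 and Irf9, of the interferon response, differed by -1.25 ± 0.24 and -0.52 ± 0.13 (edgeR adjusted p = 0.103 and 0.125). Stat3, the highest of the list in CPM, differed by 0.37 ± 0.13.

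Other cell types were read from marker lists in the same way. Neutrophil, vessel, corneal endothelial and muscle markers had lower means in resveratrol for 5 of 5, 8 of 8, 3 of 6 and 1 of 1 tested genes, and corneal epithelium and liver markers for 2 of 8 and 0 of 1.

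The members also differed in which other genes followed them, in a ranking that left out locus identifiers and the other members. Nearest to C1qa over the 6 libraries were Nckap1l, C2H1orf54 and Cd37, at root mean square differences of 0.072 to 0.079 in centred log2 CPM, and nearest to C1qb were Nrros, Adgre1 and Arrb2, at 0.074 to 0.084. C1qc was nearest to Prickle1, Arhgef15 and Fes, at 0.066 to 0.067. Among the members themselves the closest pairs were C1qb with C1qc at 0.089, C1qa with C1qc at 0.13, C1qa with C1qb at 0.14 and C1r with C1s at 0.15. The farthest pair was Cfb with Cfd at 0.98. C1s lay within 0.023 of Cped1, and Cfd within 0.069 of Ggt5 and 0.078 of Il1b. No gene in the ranking came closer to C3 than Kcnn1 at 0.15 or to Cfb than Hmcn1 at 0.16. These distances describe 6 libraries and include the difference between the groups. They also depend on each gene's own spread, so they do not compare directly between genes. That spread was 0.26 for C1r and C1s, 0.44 to 0.57 for the C1q chains, 0.49 for Cfd, 0.56 for C3 and 0.77 for Cfb.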

How the data were processed

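RNA from corneas was sequenced as 150 bp paired-end reads, per the labels' protocols. The authors deposited raw gene counts, whole numbers with no normalization, and FPKM values for the same 17771 genes, both as a table and per library, with identical values for 6 of 6 libraries. The build mRatBN7.2, R 3.2.0 and DESeq2 are named without a role, per the submitters' processing notes; the aligner, counter, annotation and strand setting are not stated there. The count header lacks a separator, so columns were assigned by the names in it, which the ratio of count to FPKM bore out (SD at most 4.89e-10 for own columns, at least 0.319 for others). Total counts were 35068936 to 37460756 per library, and no pair came within counting error of each other (the lowest chi-square divided by its degrees of freedom was 31.4).

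Counts were filtered with filterByExpr (14213 genes kept), scaled by TMM and tested with edgeR 4.0.16 (glmQLFit, glmQLFTest) in R 4.3.3, with Benjamini-Hochberg adjustment over all genes and a threshold of 0.05. Standard errors came from limma-trend (version 3.58.1), run on log2 CPM after adding a prior count of 2. They belong to a difference of mean log2 CPM, which can differ from the edgeR fold change they are printed with. For Cfb and C3, limma voom, also on log2 CPM, gave -0.48 and -0.46, against -0.76 and -0.31 in edgeR. DESeq2 1.42.0 was an alternative and gave adjusted p-values for 14666 genes. Other alternatives were 3 other scalings, no filter, at least 10 counts in every library, limma voom, limma on log2(FPKM + 1) and log2(FPKM + 0.1), a replicate block, a term for the Sep or Oct ending, Oct libraries by themselves, C4a and C4b summed, and leaving out each library. With 3 against 3 libraries an exact permutation test cannot go below 0.1, so none was made. Tests were first tried on simulated counts.

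The members and gene lists were chosen with earlier results of these data known. Named were the members, the 2 genes of highest CPM and the 2 with the smallest p of each list used, the 3 nearest genes by profile of each member (leaving out locus identifiers), markers that define a cell type and had few counts, and, chosen after their values were seen, Itgam, Lum and Kera, with a few list genes not reported here. Window sequences are from RefSeq on GRCr8, aligned with Biopython 1.88, and no coordinates of the deposited build are given.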

Additional observations from a re-analysis of the deposited data

How the results depend on the processing

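The 25 alternatives gave 250 fold changes of the 10 members, of which 217 had the same sign and side of the threshold, 29 passed it, all by DESeq2, and 4 changed sign. The sign changes were C1s without resveratrol 3 (0.034 by edgeR, 0.035 by DESeq2) and Cfb without control 1 (0.25 by both tools). Every edgeR and limma setting gave 0 members passing, and 9 or 10 with a lower mean. DESeq2 gave 1007 genes, 4 members and 4 other complement genes passing, and, without resveratrol 1, 2 or 3 and control 1, 2 or 3 in turn, 530, 642, 826, 623, 390 and 1041 genes, 5, 3, 6, 3, 3 and 5 members, and 3, 1, 6, 1, 2 and 6 other complement genes; C1qa, C2 and C4a were called in 6 of 6 of these fits, and the other members in 2 or fewer. Leaving out a library in edgeR gave 0 to 21 genes (21 without control 3, 1 without resveratrol 2) and, with DESeq2 included, a member median of -0.83 to -0.55. The Oct libraries alone gave a median of -0.51, against -0.72 with all libraries. With the replicate block 0 genes and 0 members passed and the member median was -0.69; the deviations of same-numbered libraries from their group means correlated at -0.0044, -0.012 and -0.023, so the numbers are not shown to pair the samples. The alternatives for the other complement genes were added after the data were seen. The lowest member count was 56, for Cfb.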
